A study of Mus musculus with 24 samples.

Results

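The clustered protocadherin genes were examined in RNA-Seq data from the hippocampus (HIP) and entorhinal cortex (EC) of Ts65Dn mice and their wild-type (wt) littermates. They were taken as the genes of the count table on mouse chromosome 18 whose symbol starts with Pcdha, Pcdhb or Pcdhg and that had at least 24 counts in total over the 24 libraries. This gave 58 of the 55385 genes of the table, namely 14 of the alpha cluster, 22 of the beta cluster and 22 of the gamma cluster. No candidate was lost to the minimum, since the totals ran from 73 counts for Pcdhga10 to 95640 counts for Pcdhgc5.

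Protocadherins are cadherin-like adhesion molecules of the neuronal surface. In the alpha and gamma clusters, each gene is a variable exon with its own promoter that is spliced to constant exons shared by the whole cluster, whereas each beta gene is a single exon with no constant part. A neuron chooses a few of the alternate genes at random, by promoter DNA methylation and by looping between enhancer and promoter through CTCF and cohesin, and the proteins bind the same combination on another membrane, which underlies self-avoidance of dendrites and axons. The C-type genes Pcdhac1, Pcdhac2, Pcdhgc3, Pcdhgc4 and Pcdhgc5, at the end of the alpha and gamma clusters, are instead expressed by most neurons or by certain cell types. In bulk tissue the count of a gene therefore sums over neurons that did and did not choose it, and fewer cells of a type cannot be told apart from less RNA per cell.

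The HIP and EC were dissected from 6 Ts65Dn and 6 wt male mice aged 5 to 6 months, on a mixed F1 B6C3B background in which C3B is C3H/HeN congenic for the BALB/c allele of Pde6b. Each mouse gave 1 library per region. Ts65Dn mice carry a freely segregating extra chromosome that joins the distal part of mouse chromosome 16 to the centromeric part of chromosome 17, so chromosome 18 and the protocadherin clusters on it are present in the usual number of copies in both genotypes. The extra segment from chromosome 17 also holds genes that have no homolog on human chromosome 21, which limits the line as a model of Down syndrome. The total count per library was 23128589 to 40476492, and the 58 genes took 0.0509 to 0.0738% of it.

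The labels were checked against 24 genes of the triplicated chromosome 16 segment. Their median level relative to the wt mean was 1.48 to 1.52 (HIP) or 1.47 to 1.52 (EC) in Ts65Dn replicates 1, 2, 4, 5 and 6. The libraries labelled Ts65Dn replicate 3 stood apart, with a median ratio of 1.02 for HIP and 0.963 for EC, near the wt libraries, which had 0.983 to 1.01 and 0.986 to 1.01. This mouse went against its label in both regions. The results below keep it in its labelled group, and those it decides are also given without it.

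On GRCm38, the alpha genes span chr18:36930184-37187661, the beta genes chr18:37264938-37524479 and the gamma genes chr18:37661793-37841873, all on the + strand. The annotated exons of an alpha or a gamma gene include the shared constant exons, where a 50-base read belongs to no single gene. Levels are therefore given as CPM, counts scaled to a common library size, per kilobase of 50-base windows found in no other gene's transcript. Under 200 such windows were left for 3 genes, Pcdha4 with 45, Pcdha11 with 100 and Pcdhga10 with 48, because the read-through gene Gm42416 or the antisense genes Gm10545 and Gm26672 cover their variable exons. The levels of these 3 genes are uncertain. On windows that are unique on their own strand, the level would be 0.103 in place of 2.10 CPM per kb for Pcdha11 and 0.0385 in place of 2.09 CPM per kb for Pcdhga10. The number of unique windows depended on strand for 15 of the 58 genes, among them Pcdhga11 (8.49 or, by strand, 4.19 CPM per kb) and Pcdhgc3 (31.7 or 13.6 CPM per kb). Whether the counting used strand is not given in the sources used here.

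The genes of each cluster differed widely in level, given here without regard to strand. The alpha cluster had a median of 2.07 CPM per kb over its 14 genes and ran from Pcdha8 at 0.258 to the C-type gene Pcdhac2 at 15.1 CPM per kb. In the beta cluster the median was 1.80 CPM per kb, between Pcdhb1 at 0.119 and Pcdhb9 at 5.66 CPM per kb. The gamma cluster had the highest median, 4.60 CPM per kb, and ran from Pcdhgb8, annotated as a polymorphic pseudogene, at 0.602 to Pcdhgc3 at 31.7 CPM per kb. By strand, Pcdha11 and Pcdhga10 would be the lowest of their clusters and Pcdhgc5, at 29.7 CPM per kb, the highest gamma gene.

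The C-type genes Pcdhgc3, Pcdhgc5 and Pcdhac2 were at the top of the levels in both regions. Pcdhgc3, the C-type gamma gene also expressed in glia, was at 30.4 ± 2.76 CPM per kb in HIP and 33.0 ± 4.91 in EC samples (SD, n = 12 mice each). Pcdhgc5 was at 23.1 ± 1.95 in HIP and 36.2 ± 2.35 CPM per kb in EC samples, so the order of this pair was opposite in the 2 regions, and in the EC their values overlapped. On windows that are unique on their own strand only, Pcdhgc3 fell to 13.6 CPM per kb while Pcdhgc5 stayed at 29.7, so the order of the pair also depends on how antisense transcripts are counted. Pcdhac2 followed at 12.5 ± 1.25 and 17.7 ± 1.77 CPM per kb. On own-strand windows, over both regions, it would lie above Pcdhgc3, at 15.1 against 13.6 CPM per kb. Pcdhgc4, which is required for the survival of neurons, was at 3.65 ± 0.485 in the HIP against 6.02 ± 0.50 CPM per kb in the EC, and Pcdhac1 at 1.74 ± 0.224 and 2.36 ± 0.271 CPM per kb, among the alternate genes rather than above them.

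**Figure D1:**
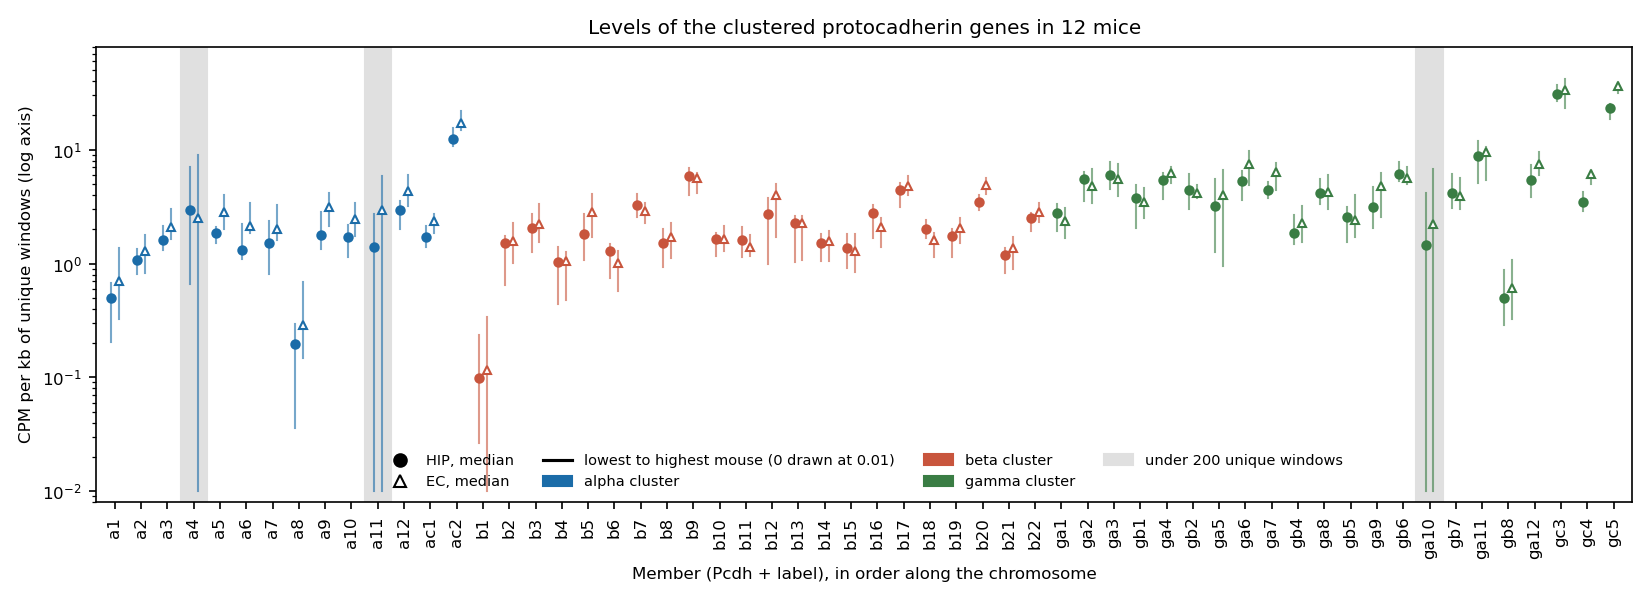
Level of each of the 58 genes in the HIP and the EC, as CPM per kilobase of unique windows on a log axis, in order along the chromosome, with the median (symbol) and the lowest to highest (line) of 12 mice per region. Pcdhgc3, Pcdhgc5 and Pcdhac2 stand above the others, Pcdhb1 and Pcdha8 below them, and the grey bands mark the 3 genes with under 200 unique windows.

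The first comparison asked how the 2 regions of the same mice differ, from 1 edgeR fit over the 24 libraries with a term for each mouse. All 12 tested alpha genes were lower in the HIP than in the EC, by 0.25 to 0.97 on the log2 scale, and so were 4 of the 5 C-type genes, while beta and gamma genes went in both directions. Of the 55 genes tested, 8 were called higher and 29 lower in the HIP (edgeR's quasi-likelihood test, Benjamini-Hochberg adjusted p under 0.05), or 67.3%. The same test called 68.1% of all 18109 genes, with 35.3% of all genes higher and 32.8% lower in the HIP. The share of members called was thus near that of all genes, and the members' calls fell mostly on the lower side. Their median log2 fold change was -0.20, against 0.01 for all genes tested.

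Among the C-type genes, Pcdhgc5, the member with the most counts, had 85.4, 107 and 115 CPM as its lowest, median and highest value in the HIP and 143, 167 and 181 CPM in the EC. The 2 regions did not overlap, and the gene was lower in the HIP of 12 of 12 mice (log2 fold change -0.65, SE 0.05, edgeR's quasi-likelihood test, adjusted p 5.92e-09). Pcdhgc4 had 8.49, 10.2 and 12.4 CPM in the HIP against 14.5, 17.6 and 19.1 CPM in the EC, again without overlap (log2 fold change -0.73, SE 0.07, adjusted p 1.06e-07). Pcdhac2, a C-type alpha gene needed for the tiling of serotonergic axons, had 32.7, 37.4 and 47.1 CPM in the HIP and 45.5, 52.4 and 66.2 CPM in the EC. Its ranges touched, but it too was lower in the HIP of 12 of 12 mice (log2 fold change -0.50, SE 0.04, adjusted p 4.53e-09), as was Pcdhac1 (-0.44, SE 0.07, adjusted p 3.70e-05). Pcdhgc3 did not pass the test (log2 fold change -0.11, 95% confidence interval -0.23 to 0.01, adjusted p 0.108), with 29.3, 34.1 and 40.4 CPM in the HIP and 25.4, 37.1 and 45.7 CPM in the EC. Its values in the HIP lay within those in the EC, and it was lower in the HIP of 8 of 12 mice.

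The tested alternate alpha genes all fell in the HIP. Pcdha9 had 3.01, 3.98 and 6.38 CPM in the HIP against 4.73, 7.06 and 9.36 CPM in the EC. The regions overlapped across mice, yet within each of the 12 mice the HIP was the lower one (log2 fold change -0.70, SE 0.08, edgeR's quasi-likelihood test, adjusted p 1.60e-06). Pcdha1, the first gene of the cluster, fell by 0.72 (SE 0.13, adjusted p 0.000122) and was lower in the HIP of 12 of 12 mice. Pcdha8 had the fewest counts of the 12 tested alpha genes, at 0.0728, 0.394 and 0.597 CPM in the HIP and 0.299, 0.581 and 1.38 CPM in the EC, and was lower in the HIP of 11 of 12 mice (log2 fold change -0.97, SE 0.19, adjusted p 0.000258). Its large fold change thus rests on under 1 CPM in the HIP. The median of the 12 alpha genes was -0.59.

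In the beta cluster, 5 of 22 genes were called higher and 8 lower in the HIP (59.1%), with a median log2 fold change of -0.09. Over all genes, 68.1% were called, 35.3% higher and 32.8% lower. The beta median ran from -0.14 to -0.06 without 1 mouse and was -0.22 with GC content and length removed. Pcdhb20 had 9.77, 11.4 and 13.3 CPM in the HIP and 13.5, 16.1 and 18.7 CPM in the EC, with no overlap between regions (log2 fold change -0.49, SE 0.04, edgeR's quasi-likelihood test, adjusted p 2.32e-08). Pcdhb5 (-0.67, SE 0.07, adjusted p 4.49e-07) and Pcdhb12 (-0.56, SE 0.07, adjusted p 3.02e-06) were also lower in the HIP of 12 of 12 mice. In the other direction, Pcdhb18 had 8.06, 9.76 and 11.5 CPM in the HIP and 5.53, 7.78 and 8.88 CPM in the EC. The ranges overlapped, but the HIP was the higher region in 12 of 12 mice (log2 fold change 0.38, SE 0.06, adjusted p 1.45e-05). Pcdhb6 (0.37, SE 0.07, adjusted p 0.000191) and Pcdhb16 (0.34, SE 0.07, adjusted p 0.000302) were each higher in the HIP of 11 of 12 mice. Pcdhb9, the beta gene with the highest level, did not pass the test (0.06, 95% confidence interval -0.05 to 0.16). Genes that rose and genes that fell lay side by side along the cluster, such as Pcdhb5 and Pcdhb6.

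In the gamma cluster, 3 of 21 tested genes were called higher and 9 lower in the HIP. That was 57.1%, against 68.1% of all genes, of which 35.3% were higher and 32.8% lower. Among the 11 A-type genes 2 rose and 6 fell (72.7%), and among the 7 B-type genes 1 rose and 1 fell (28.6%). Pcdhga6 had 9.46, 13.8 and 16.9 CPM in the HIP and 12.8, 19.7 and 25.2 CPM in the EC and was lower in the HIP of 12 of 12 mice (log2 fold change -0.54, SE 0.05, edgeR's quasi-likelihood test, adjusted p 1.50e-07). The genes that rose did so by less, with Pcdhga1 at 0.25 (SE 0.08, adjusted p 0.0139), Pcdhga2 at 0.14 (SE 0.05, adjusted p 0.0215) and Pcdhgb6 at 0.12 (SE 0.05, adjusted p 0.0276). The calls of Pcdhga2 and Pcdhgb6 were lost under several other settings.

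**Figure D2:**
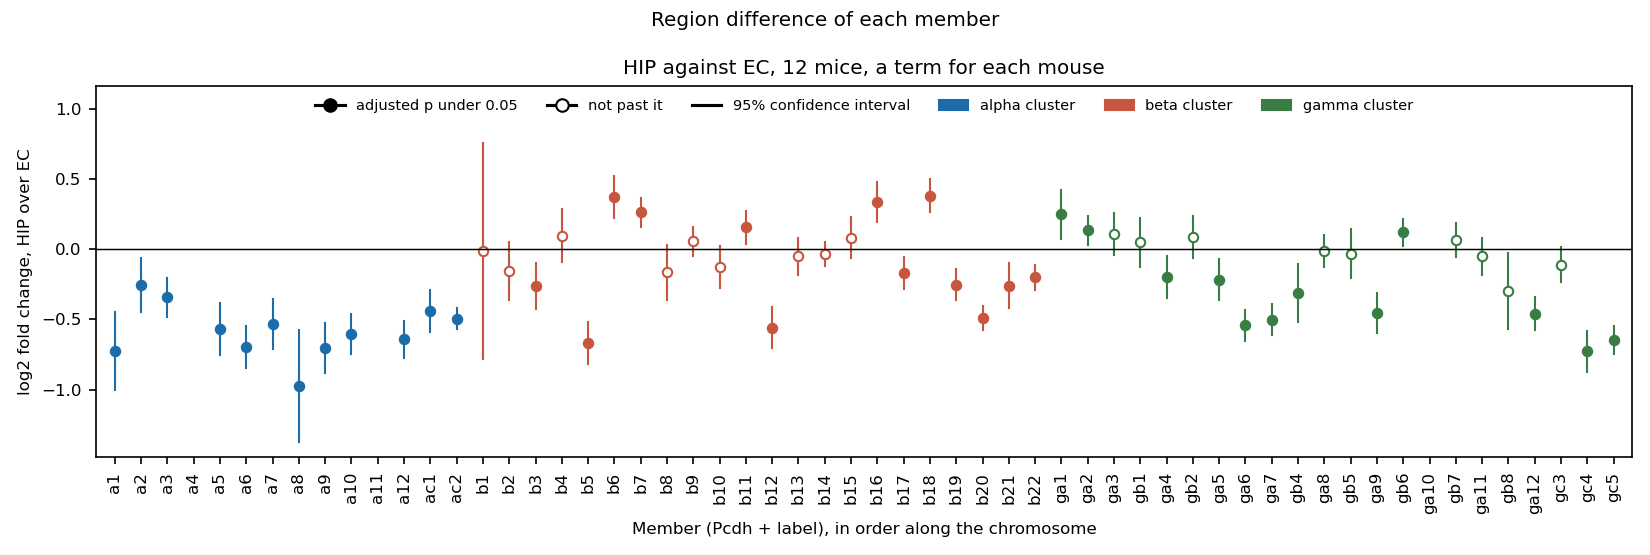
Log2 fold change of the HIP over the EC for the 55 tested genes in order along the chromosome, with 95% confidence intervals from edgeR's fit over 12 mice. Filled symbols passed an adjusted p of 0.05; the 12 alpha genes all lie below 0, whereas the beta and gamma genes lie on both sides.

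Both genotypes showed this pattern when the region effect of each was tested within the same fit over the 24 libraries. In wt mice 6 genes were called higher and 26 lower in the HIP, where 58.6% of all genes were called, 30.3% higher and 28.3% lower. In Ts65Dn mice 5 were called higher and 23 lower, where 56.5% of all genes were called, 29.5% higher and 27% lower. The pairs of calls agreed in direction for 26 genes, which is 81.2% of the members called in wt and 92.9% of those called in Ts65Dn, and 0 members were called in opposite directions. The same shares over all genes were 85.0 and 88.1%.

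Markers of several cell types differed between the regions in the same libraries. All 8 markers of hippocampal neurons were higher in the HIP, where they summed to 1014 to 1430 CPM against 187 to 240 CPM in the EC, with Zbtb20 the most abundant, and 7 of 8 markers of cortical neurons were lower in the HIP, which follows the labelled tissues. All 8 oligodendrocyte markers were higher in the HIP (6842 to 10751 against 1418 to 2911 CPM, mostly Mbp), as were all 10 choroid plexus markers (58.6 to 5380 against 9.81 to 54.0 CPM, mostly Ttr), while 8 of 8 microglial, 8 of 8 endothelial, 5 of 8 interneuron and 6 of 8 striatal markers were lower. Of the other marker lists, 5 of 8 astrocyte genes were higher and 2 lower, and 3 of 8 meningeal fibroblast genes were higher. No marker was at 0 in all libraries of either region. The part of these differences in cell makeup in the protocadherin results was not tested.

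The second comparison, of Ts65Dn with wt mice, asked whether the extra chromosome goes with another level of genes it does not carry. In neither region did a protocadherin gene pass the test. The beta genes, however, lay slightly below the wt level in almost every case, and the 12 tested alpha genes lay evenly around it. In the HIP, 0 of 54 tested genes were called, where edgeR's quasi-likelihood test called 1.04% of all 17355 genes at an adjusted p under 0.05. At an unadjusted p under 0.05, 1 was higher and 8 were lower, against 7.23% and 7.59% of all genes, and DESeq2 called 1, with 3.64% of all genes called. In the EC, 0 of 54 were called, where 2.5% of all 17049 genes were, with 1 higher and 11 lower at an unadjusted p under 0.05, against 9.01% and 9.97% of all genes. DESeq2 called 4 in the EC, with 6.48% of all genes called.

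In the HIP, 40 of the 54 genes (74.1%) had a log2 fold change below 0, as had 48.7% of all genes, with a median of -0.10 for the members and 0.00 for all genes. Of the 21 tested beta genes, 20 lay below 0 (median -0.19), against 6 of 12 alpha genes (median 0.00) and 14 of 21 gamma genes (median -0.12). The gamma median lay between -0.07 and -0.01 when Ts65Dn replicate 1, 5 or 6 or wt replicate 1 or 5 was left out. In the EC, 45 of 54 (83.3%) lay below 0, again against 48.7% of all genes, with 20 of 21 beta genes (median -0.19), 6 of 12 alpha genes (median 0.01) and 19 of 21 gamma genes (median -0.10). That gamma median was -0.04 without Ts65Dn replicate 2, -0.05 without Ts65Dn replicate 6, -0.06 without wt replicate 6 and -0.17 without the mouse labelled Ts65Dn replicate 3. Genes of a cluster are not independent, both regions come from the same mice, and no test was made over the clusters.

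The summed level of the beta cluster is given here by mouse. In the HIP it was 158.2, 194.2 and 201.3 CPM (lowest, median and highest) in wt mice and 135.5, 177.6 and 189.2 CPM in Ts65Dn mice. The groups overlapped through 1 wt mouse, replicate 2, which lay below 4 of the 6 Ts65Dn mice. In the EC the sum was 167.8, 207.4 and 212.8 CPM in wt and 155.3, 177.7 and 205.8 CPM in Ts65Dn mice. Here too wt replicate 2 was low, and the mouse labelled Ts65Dn replicate 3 was the highest of its group. Without that mouse the Ts65Dn values were 155.3, 166.1 and 189.55 CPM. The wt mice other than replicate 2 had 204.1 to 212.8 CPM. Ts65Dn replicates 1 and 6 were low in both regions, at 135.5 and 142.7 CPM (HIP) or 155.3 and 162.9 CPM (EC). Of the 22 beta genes, 9 had their lowest HIP value of the 12 mice in Ts65Dn replicate 1 and 7 in Ts65Dn replicate 6. In the EC, 8 had it in Ts65Dn replicate 6, 6 in replicate 1 and 4 in replicate 2.

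Choroid plexus markers in the HIP summed to 5380 CPM in Ts65Dn replicate 1 and 5058 CPM in wt replicate 2, the highest of the 12 mice. The sum was 131.4 CPM in Ts65Dn replicate 6, and the median mouse had 1583 CPM. In the EC these markers summed to 9.81 to 54.0 CPM. Striatal neuron markers in the EC summed to 268.9, 311.5 and 340.5 CPM in Ts65Dn replicates 1, 2 and 6, above the 216.1 to 231.1 CPM of the other Ts65Dn mice and the 217.1 to 242.0 CPM of the wt mice, and their median log2 fold change there was 0.50. Meningeal fibroblast markers in the HIP were highest in Ts65Dn replicate 1 (184.7 CPM) and Ts65Dn replicate 2 (177.8 CPM). The highest wt mouse there was replicate 2, with 110.4 CPM, and the median log2 fold change was 0.43. In the EC the meningeal sum was highest in wt replicate 2, at 161.2 CPM. It was 99.5 CPM in Ts65Dn replicate 1 and 49.2 CPM, the lowest, in Ts65Dn replicate 6 (median log2 fold change -0.10). The astrocyte markers had medians of -0.09 (HIP) and -0.10 (EC). The part of these cell types in the low beta sums was not tested. Without the mouse labelled Ts65Dn replicate 3, the median of the beta genes was -0.24 (HIP) or -0.20 (EC), and over the mice left out in turn it ran from -0.24 to -0.12 (HIP) or from -0.24 to -0.15 (EC).

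**Figure D3:**
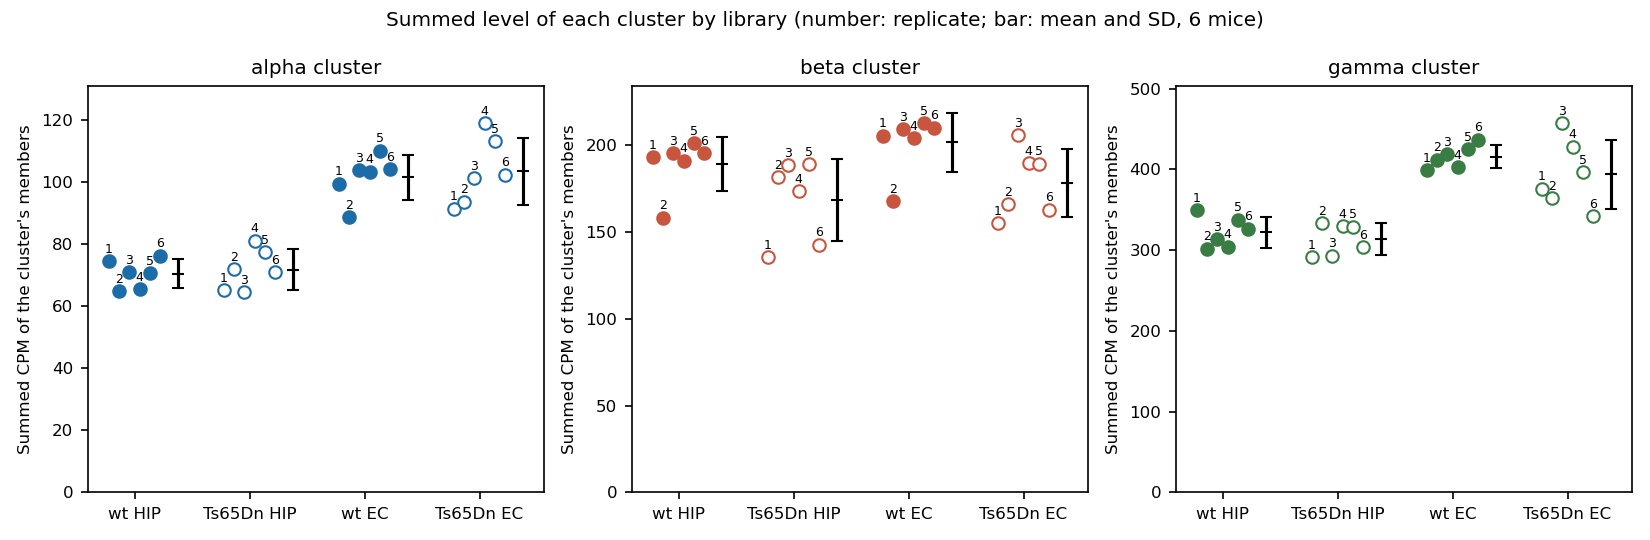
Summed CPM of the alpha, beta and gamma clusters in each library, by genotype and region, with the replicate number beside each point and the mean and SD of 6 mice. In the beta panel wt replicate 2 and Ts65Dn replicates 1 and 6 lie low in both regions. In the alpha panel every EC library lies above every HIP library, and in the gamma panel only Ts65Dn replicate 6, at 341.8 CPM in the EC, falls within the HIP range.

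The alpha and gamma sums overlapped more between genotypes. Alpha summed to 70.5 ± 4.60 CPM in the wt HIP, 71.9 ± 6.57 CPM in the Ts65Dn HIP, 101.7 ± 7.22 CPM in the wt EC and 103.6 ± 10.8 CPM in the Ts65Dn EC (SD, n = 6). Gamma, in the same order, summed to 322.2 ± 19.1, 313.4 ± 19.6, 415.7 ± 14.0 and 393.9 ± 42.8 CPM, where the wide spread in the Ts65Dn EC ran from replicate 6 at 341.8 CPM to the mouse labelled replicate 3 at 457.4 CPM. Without that mouse, gamma in the Ts65Dn EC summed to 381.2 ± 32.8 CPM (SD, n = 5), and the 2 groups still overlapped.

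The single gene with the smallest p in the HIP was Pcdhb7. It had 10.1, 12.2 and 13.0 CPM in wt and 8.17, 9.94 and 10.5 CPM in Ts65Dn mice. The groups overlapped only in the lowest wt mouse, replicate 2, and the difference did not pass the adjusted threshold (log2 fold change -0.30, SE 0.08, edgeR's quasi-likelihood test, adjusted p 0.0922), although DESeq2 called it (adjusted p 0.0218). In the EC the value for Pcdhb7 was -0.21 (adjusted p 0.253). The smallest p of the other 2 clusters in the HIP belonged to Pcdhgb4 (-0.30, SE 0.11, adjusted p 0.235) and Pcdha5 (-0.16, SE 0.11, adjusted p 0.516).

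In the EC, Pcdhga12 went against most of its cluster. It had 15.7, 16.5 and 19.8 CPM in wt and 19.3, 20.9 and 24.9 CPM in Ts65Dn mice. The groups overlapped narrowly (log2 fold change 0.29, SE 0.08, edgeR's quasi-likelihood test, adjusted p 0.0650), and DESeq2 called the difference (adjusted p 0.0148). In the HIP its log2 fold change was 0.28 (adjusted p 0.263). Pcdhb11 had 5.51, 6.03 and 7.07 CPM in wt and 4.61, 5.02 and 5.61 CPM in Ts65Dn mice in the EC, with wt replicates 1 and 4 below the highest Ts65Dn mouse (log2 fold change -0.30, SE 0.09, adjusted p 0.0968, and 0.0486 by DESeq2). Pcdha1, with the smallest p of the alpha genes, was at -0.36 (SE 0.28, adjusted p 0.534).

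A pair of A-type gamma genes on either side of Pcdhgb5, chosen after their values were seen, also came close to the threshold in the EC. Pcdhga8 had 8.32, 10.6 and 12.5 CPM in wt and 6.31, 7.93 and 8.95 CPM in Ts65Dn mice (log2 fold change -0.45, SE 0.12, edgeR's quasi-likelihood test, adjusted p 0.0657). Pcdhga9 had 10.1, 13.1 and 15.8 CPM in wt and 6.39, 8.87 and 12.9 CPM in Ts65Dn mice (log2 fold change -0.50, SE 0.16, adjusted p 0.108). The groups overlapped for both, and DESeq2 called both, at adjusted p 0.0129 and 0.0372. In the HIP, Pcdhga9 was highest of all mice in Ts65Dn replicate 6, at 11.9 CPM, and without that mouse edgeR called it (log2 fold change -0.67, adjusted p 0.0276), where 0.308% of all genes were called.

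The libraries labelled Ts65Dn replicate 3 decided several values in the EC. Without them, Pcdhb2 (log2 fold change -0.61, adjusted p 0.00813), Pcdhb3 (-0.56, adjusted p 0.0373), Pcdhb5 (-0.66, adjusted p 0.0138) and Pcdhga11 (-0.56, adjusted p 0.0398) were called lower in Ts65Dn by edgeR's quasi-likelihood test, with 2.79% of all genes called. Pcdhb5 shows how: its EC value was 13.6 CPM in the library labelled Ts65Dn replicate 3 and 5.60 to 8.03 CPM in the other 5 Ts65Dn mice, against 8.68, 11.4 and 12.8 CPM in wt mice. Without Ts65Dn replicate 6, Pcdhga12 (0.32, adjusted p 0.0431) and Pcdhga9 (-0.62, adjusted p 0.0350) were called in the EC, with 3.99% of all genes called.

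The C-type genes lay close to 0 in both regions. Pcdhgc5 was at -0.02 (95% confidence interval -0.16 to 0.13) in the HIP, against -0.07 (-0.19 to 0.05) in the EC. For Pcdhac2 these values were 0.04 (-0.12 to 0.21) and 0.05 (-0.12 to 0.21). For Pcdhgc3 they were 0.12 (-0.03 to 0.26) and 0.00 (-0.25 to 0.25). Intervals of this width leave differences of up to about these bounds undetected.

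**Figure D4:**
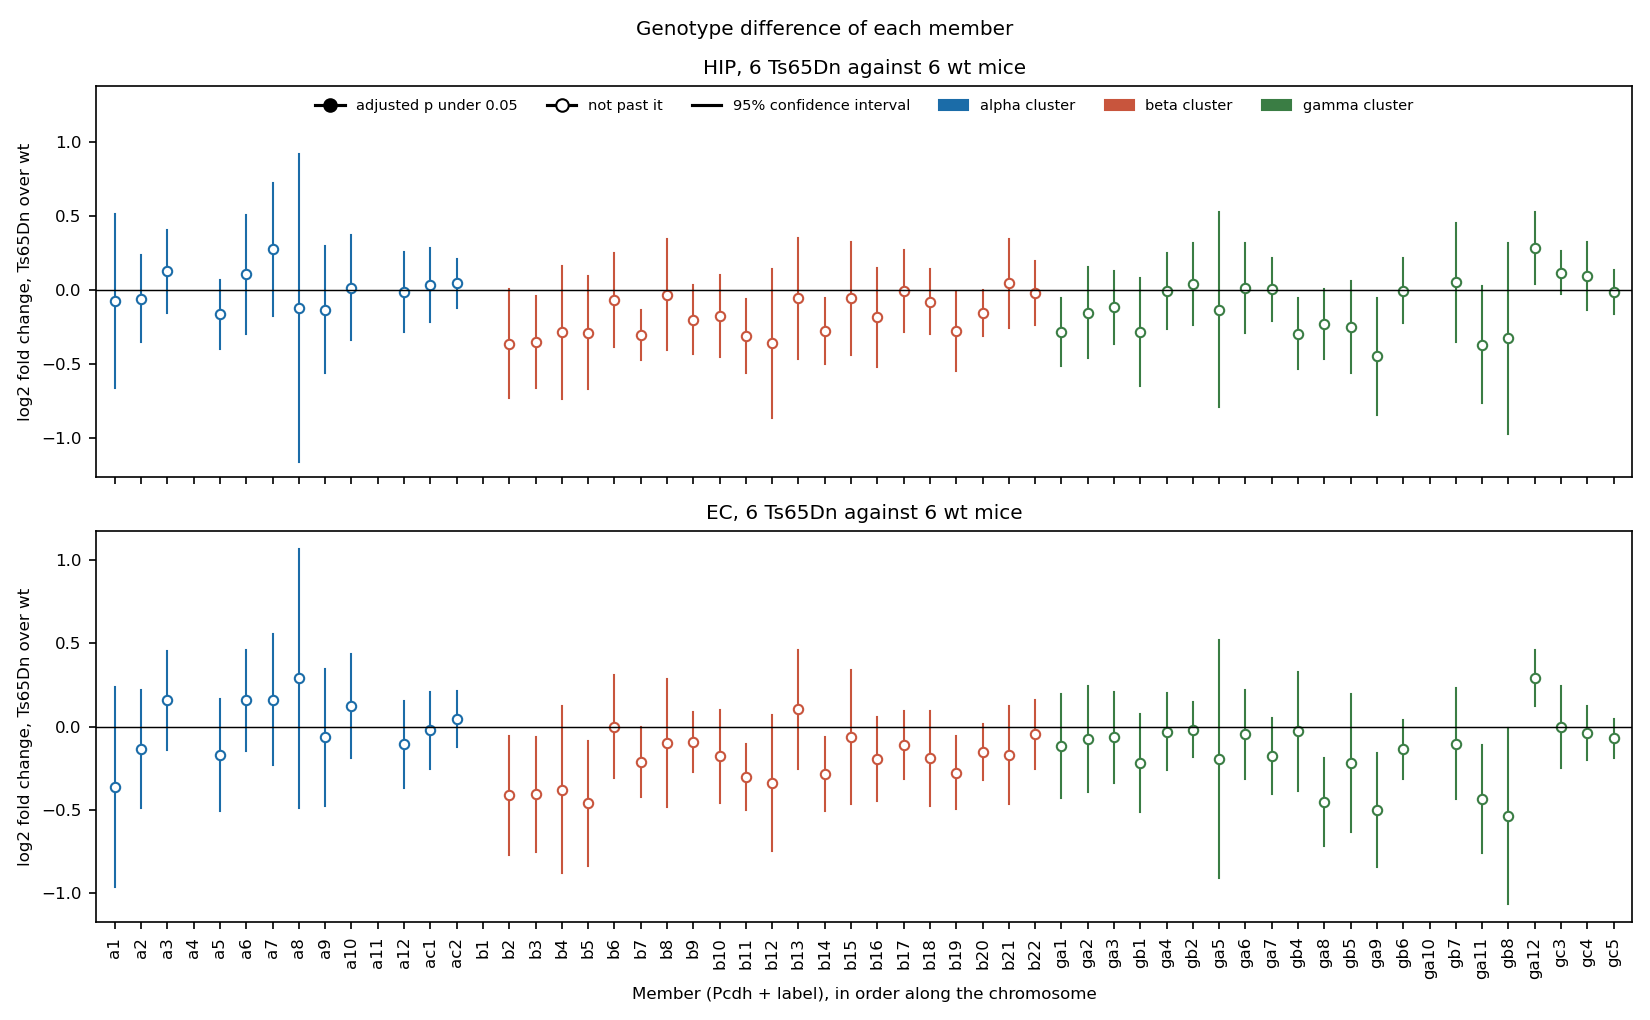
Log2 fold change of Ts65Dn over wt for the 54 tested genes in the HIP (top) and EC (bottom), with 95% confidence intervals from edgeR, 6 mice per group. No symbol is filled, as none passed an adjusted p of 0.05, and 20 of 21 beta genes lie below 0 in each region.

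Whether the genotype difference itself differs between regions was tested as an interaction. Of the 55 members 0 passed, and 0 had an unadjusted p under 0.05. Over all 18109 genes, edgeR's quasi-likelihood test called 0 (0% of all genes) and 4.1% had an unadjusted p under 0.05, and DESeq2 also called 0. The median half-width of the members' 95% confidence interval was 0.29 on the log2 scale, before any adjustment for the number of genes.

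Genes around the clusters were then examined from fixed lists. Of 24 tested genes for chromatin factors that act on the clusters, 16 were higher and 5 lower in the HIP than in the EC, where 35.3% of all genes were higher and 32.8% lower. Rest, a repressor of neuronal genes, had 8.08 ± 1.13 CPM in the HIP and 3.89 ± 0.491 CPM in the EC (SD, n = 12, log2 fold change 1.06, edgeR's quasi-likelihood test, adjusted p 6.75e-09). Wapl, which releases cohesin from DNA, had 79.7 ± 6.55 and 54.1 ± 5.67 CPM (log2 fold change 0.56, adjusted p 2.08e-08), and Dnmt1, the maintenance methyltransferase, went the other way with 44.8 ± 3.05 and 58.7 ± 3.72 CPM (log2 fold change -0.39, adjusted p 1.45e-07). The cytosine dioxygenase Tet1 was higher in the HIP, with a log2 fold change of 0.71 (adjusted p 1.71e-07). Between genotypes, 0 of 24 passed in the HIP, where 1.04% of all genes did. In the EC 1 of 23 did, where 2.5% of all genes passed. This was the cohesin subunit Rad21, with 150.9 ± 6.82 CPM in Ts65Dn and 170.0 ± 8.15 CPM in wt mice (log2 fold change -0.18, edgeR's quasi-likelihood test, adjusted p 0.0482).

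Of 25 genes for partners of the proteins and for enzymes that process them, 9 were higher and 7 lower in the HIP, a share near the 68.1% of all genes called. Among those higher were Prkca, a kinase, at a log2 fold change of 1.05 (edgeR's quasi-likelihood test, adjusted p 3.88e-11), the focal adhesion kinase relative Ptk2b, which clustered protocadherins bind and inhibit, at 0.71 (adjusted p 1.25e-09), and Cyfip1 and Abi1 of the WAVE complex of actin regulators at 0.68 (adjusted p 8.88e-11) and 0.54 (adjusted p 8.93e-11). On the lower side the list reached -0.81. Its most abundant gene, Cyfip2, had a lower mean in the HIP (1236 CPM) than in the EC (1572 CPM). Between genotypes, Rhoa, a GTPase of the cytoskeleton, was higher in the HIP of Ts65Dn mice (0.21, adjusted p 0.0277), and Abi2 was lower in the EC (-0.18, adjusted p 0.0416). No other gene of this list passed in either region, where 1.04% (HIP) and 2.5% (EC) of all genes did.

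Relatives encoded outside the clusters were also compared. Of 12 non-clustered protocadherins, 3 were higher and 6 lower in the HIP (median -0.10), where 35.3% of all genes were higher and 32.8% lower, with log2 fold changes from -1.25 for Pcdh7 to 2.40 for Pcdh20, where the clustered genes ran from -0.97 to 0.38. Pcdh20 had 204.0 ± 31.2 CPM in the HIP and 39.6 ± 10.7 CPM in the EC, and Pcdh10 129.7 ± 15.6 and 251.8 ± 27.8 CPM. Of 14 classical cadherins, 4 were higher and 8 lower (median -0.44, against the same shares of all genes), among them Cdh11 (0.78), Cdh13 (-1.94), Cdh18 (-1.44) and Cdh22 (-1.91). Between genotypes, 0 of these 26 genes passed in the HIP, where 1.04% of all genes did. The non-clustered protocadherins had a median log2 fold change of -0.07 (HIP) or -0.09 (EC), and their summed level in the EC was 1257 to 1345 CPM in Ts65Dn mice against 1356 to 1499 CPM in wt mice, without overlap. In the HIP the same sum overlapped, at 1181 to 1409 CPM in Ts65Dn and 1298 to 1436 CPM in wt mice. The lowest value of each region was that of the mouse labelled Ts65Dn replicate 3. The other Ts65Dn mice had 1268 to 1345 CPM (EC) and 1258 to 1409 CPM (HIP). Counted as wt, as its triplicated genes would place it, that mouse would make the groups overlap in the EC. In the EC, Pcdh7 (-0.40, edgeR's quasi-likelihood test, adjusted p 0.0169), Cdh12 (-0.43, adjusted p 0.0316) and Cdh6 (-0.53, adjusted p 0.0410) were lower in Ts65Dn mice. Of all genes, 2.5% were called there, in either direction.

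Few cell type markers passed between genotypes, where 1.04% (HIP) and 2.5% (EC) of all genes did. P2ry12, a microglial receptor, was lower in Ts65Dn mice in the HIP (log2 fold change -0.27, edgeR's quasi-likelihood test, adjusted p 0.0422) and in the EC (-0.45, adjusted p 0.0226). The 8 microglial markers went in both directions, with medians of -0.03 (HIP) and -0.08 (EC) and values up to 0.18 and 0.16. In the EC, Mef2c, among the cortical neuron markers, was lower (-0.32, adjusted p 0.0226), and Drd2, among the striatal markers, was higher (1.56, adjusted p 0.0254). Members of both lists went in both directions there. The 8 cortical markers ran from -0.37 to 0.23 (median -0.02) and the 8 striatal ones from -0.23 to 1.69 (median 0.50). The part of these markers in the protocadherin values was not tested.

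Finally, the mice themselves differed in which genes were high. Within a group, the SD of log2 CPM had a median of 0.220 over the 50 alternate and 5 C-type genes tested, against 0.165 over all genes. For the C-type genes alone it was 0.155, and for the others 0.229. These sets were not matched for level. The C-type genes had means of 5.24 to 135 CPM, while Pcdha8, at 0.522 CPM, had an SD of 0.380. The largest SD was 0.644, for Pcdhga5 at 10.1 CPM. The part of count depth in these SDs was not tested. To see whether a mouse's level in the HIP went with its level in the EC, log2(CPM + 0.5) was centred by genotype in each region and correlated over the 12 mice. This measure was chosen after the values were seen. The median Pearson r was 0.65 over the 55 members and 0.25 over all 18109 genes. Without the 2 farthest mice of each gene it was 0.45 and 0.21. These were the mice whose centred HIP value lay farthest from the median, whatever their EC value. With all 12 mice, r was at least 0.7 for 19 of 55 members (34.5%) and for 9.8% of all genes. After a permutation test adjusted over all genes, 4 of 55 members (7.27%) had a positive correlation, against 2.8% of all genes. This count rests on all 12 mice, since leaving out any 1 of them left 0 to 2 members past the threshold. Members of a cluster share the same mice, so these shares are a description.

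Pcdhga5 shows the pattern. Ts65Dn replicate 6 had 3.17 CPM in the HIP and 2.42 CPM in the EC, wt replicates 1, 5 and 6 and Ts65Dn replicates 2 and 4 had 11.1 to 14.1 CPM (HIP) and 13.5 to 16.9 CPM (EC), and the other 6 mice had 6.30 to 8.44 and 7.42 to 10.4 CPM. The mice thus fell into 3 levels that were the same in both regions and held both genotypes at the upper 2. Over all 12 mice Pearson's r was 0.945 and Spearman's rho 0.930 (permutation test within genotype, adjusted p 0.0275). Without the 2 mice farthest from the median in the HIP, r was 0.889. Since the values cluster, r over all 12 mice mostly compares the clusters.

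The other 3 genes that passed with all 12 mice were Pcdhgb7 (r 0.875, rho 0.741, permutation test, adjusted p 0.0441, r 0.786 without the 2 farthest mice), Pcdhb15 (r 0.855, rho 0.895, adjusted p 0.0335, r 0.833) and Pcdhga2 (r 0.852, rho 0.839, adjusted p 0.0369, r 0.739). Pcdhb13 had a like r, 0.847 (permutation test, adjusted p 0.260), that rested on the 2 farthest mice. Its level in wt replicate 2 was 3.72 CPM (HIP) and 3.86 CPM (EC), against 7.71 to 9.22 and 6.90 to 9.31 CPM in the other wt mice, and r was 0.0973 without the 2 farthest mice. The 5 C-type genes had a median r of 0.23, from -0.27 for Pcdhgc5 to 0.67 for Pcdhac2. For Pcdhgc5 the negative sign rested on 2 mice, since r was 0.35 without the 2 farthest, and rho over all 12 mice was 0.19.

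**Figure D5:**
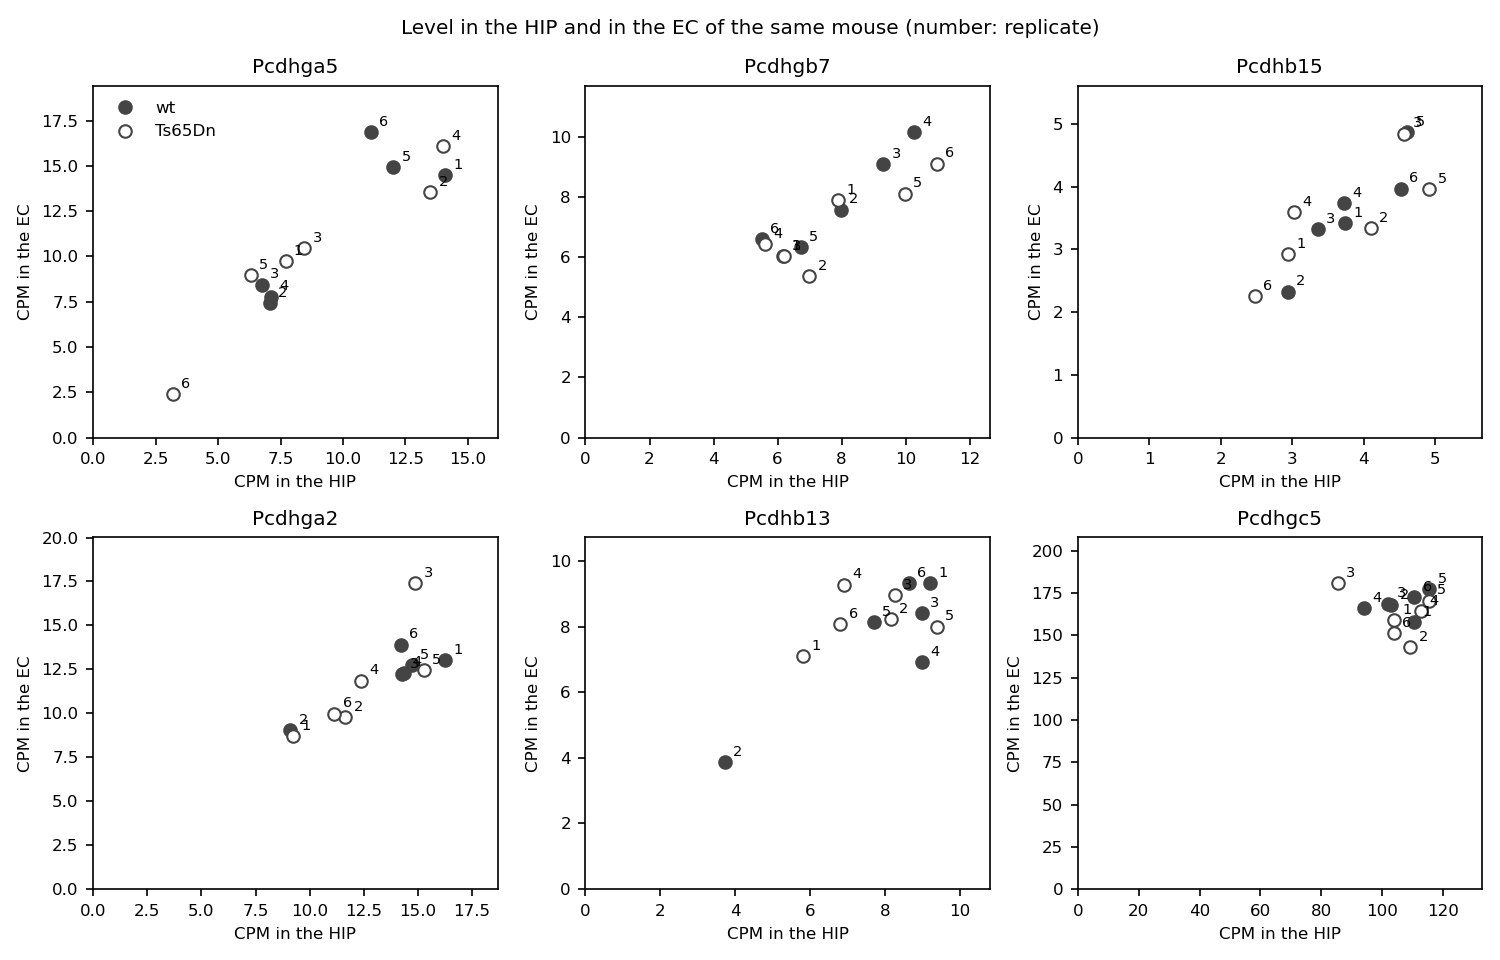
CPM in the HIP (x) and in the EC (y) of the same mouse for 6 genes, with filled symbols for wt, open symbols for Ts65Dn and the replicate number beside each. For Pcdhga5, Pcdhgb7, Pcdhb15 and Pcdhga2 mice that were high in the HIP were high in the EC, for Pcdhb13 wt replicate 2 lies far below the others, and Pcdhgc5 had r = -0.27.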

How the data were processed

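Single-end 50-base reads of 24 libraries were aligned by the authors with Hisat2 on GRCm38, and the deposited table holds their raw HTSeq-count counts per Ensembl gene, not normalized. The labels name a stranded polyA kit, while the study's methods also name ribosomal RNA depletion. The strand setting is not given in the sources used here. The deposited tables of the authors' own comparisons, which hold mean normalized counts, log2 fold changes, ratios and p-values, were not used.

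Genotype was tested in each region with edgeR 4.0.16 (TMM, glmQLFit and glmQLFTest, filterByExpr) in R 4.3.3, and region and interaction in 1 fit over 24 libraries with a term for each mouse, on the whole table, with Benjamini-Hochberg adjustment over all genes tested and a threshold of 0.05. CPM were on TMM library sizes. Pcdha4, Pcdha11, Pcdhb1 and Pcdhga10 were filtered out in both genotype comparisons, and 3 of them (not Pcdhb1) in the region comparison. The number in the titles pairs the HIP and EC of a mouse: the correlations of same-numbered libraries' deviations were 0.178 to 0.426, each the best of its library. Permutation tests used 100000 resamples within genotype (numpy 2.4.6), and scipy 1.17.1 gave the ranks for Spearman's rho. The scripts were tested on simulated data. DESeq2 1.42.0, size factors, low-count filters, GC content and length, the replicate block and leaving out each mouse were alternatives.

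The text names the C-type genes, the highest and lowest gene of each cluster, the smallest p of each cluster between genotypes, the 3 genes with the largest called fold change per cluster and direction between regions, and up to 4 called genes of each other list. Members, lists and tests were chosen with earlier results of these data known. Gene models were those of GENCODE vM21. Its second gene named Pcdha11, ENSMUSG00000007440, is called Pcdha10 here, after the RefSeq gene that starts 117 bases away.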

Additional observations from a re-analysis of the deposited data

Results flagged for a closer look

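Single libraries far from the other 5 of their group were found in 13 of 120 groups of 6 looked at, by the gap to the nearest library over the whole range. Chance marks about 1 in 20 groups, and the groups share mice. Of the 13, 7 were of wt replicate 2. Its Pcdhga2 level was 9.10 CPM (HIP) and 9.05 CPM (EC), where the other wt mice had 14.2 to 16.2 and 12.2 to 13.9 CPM. Its beta sum was 158.2 CPM (HIP) and 167.8 CPM (EC), below the 191.0 to 201.3 and 204.1 to 212.8 CPM of the others. Pcdha5 was at 3.03 CPM in its HIP, with 3.83 to 4.23 CPM in the other wt mice, Pcdhb7 at 10.1 CPM, with 12.2 to 13.0 CPM, and Pcdhb18 at 5.62 CPM in its EC, with 7.80 to 8.88 CPM.

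Among Ts65Dn mice, replicate 6 had the lowest Pcdhb9 in the EC (11.5 CPM, others 14.8 to 16.3 CPM) and the lowest Pcdhb7 in the HIP (8.17 CPM, others 9.69 to 10.5 CPM). Replicate 1 had the lowest Pcdhb16 in the EC (7.08 CPM, others 9.79 to 11.4 CPM). The mouse labelled Ts65Dn replicate 3 had the highest Pcdhb5 in the EC (13.6 CPM, others 5.60 to 8.03 CPM). Its median ratio of the triplicated genes to the wt mean was 1.02 for HIP and 0.963 for EC, with 1.48 to 1.52 and 1.47 to 1.52 in the other Ts65Dn mice.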

How the results depend on the processing

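The numbers of members called between genotypes moved with the tool and with single mice. DESeq2 called 1 lower in the HIP, and 1 higher and 3 lower in the EC, where it called 631 and 1105 of all genes. Leaving out 1 mouse at a time gave 0 to 1 lower in the HIP, and 0 to 1 higher and 0 to 4 lower in the EC, where the 4 came without the mouse labelled Ts65Dn replicate 3. Over all genes, these fits called 54 to 318 (HIP) and 90 to 685 (EC). The median of the gamma genes then ran from -0.15 to -0.014 (HIP) or -0.17 to -0.042 (EC). Without the low-count filter, and with GC content and length removed, 5 members were higher in the HIP than in the EC. Over all genes, 12957 of 36766 and 12495 of 18099 were called between regions, in either direction. Without 1 mouse, 5 to 9 were higher and 29 to 31 lower, where 11980 to 12391 of all genes were called. Removing GC content and length moved the region medians to -0.69 for alpha and -0.22 for beta, and that of all genes to -0.06.

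The share of the summed member level held by each cluster changed with the scale. From CPM to CPM per kb of unique windows and then of own-strand unique windows, alpha went from 12.6 to 15.4 and 16.0% (HIP) or 14.8 to 18.4 and 18.9% (EC). Beta went from 31.4 to 21.6 and 24.5% (HIP) or 27.2 to 19.4 and 21.6% (EC). Gamma went from 56.0 to 63.0 and 59.5% (HIP) or 58.1 to 62.2 and 59.5% (EC). The number of members whose levels went together across mice was 0 to 2 without 1 mouse, and 17 without centring by genotype. No share over all genes is given here for these settings, so these counts cannot be read against one.

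For the named genes, 571 alternative values kept direction and side of the threshold, 7 passed it, 13 no longer did and 20 changed direction. The last were C-type genes near 0 between genotypes. In the EC, Pcdhac1 went to 0.0044 with GC content and length removed, and Pcdhgc3 went to -0.0037 with at least 10 counts in every library, -0.070 with GC content and length removed and -0.012 with the replicate block. Without 1 mouse, the HIP values ran from -0.027 to 0.092 for Pcdhac1, -0.018 to 0.087 for Pcdhac2 and -0.045 to 0.036 for Pcdhgc5, and the EC values from -0.081 to 0.021 for Pcdhac1, -0.019 to 0.078 for Pcdhac2, -0.071 to 0.085 for Pcdhgc3 and -0.065 to 0.0086 for Pcdhgc4. The causes of these changes were not tested.

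With the replicate number as a block, 0 members were called higher and 0 lower in either region. Few genes were called at all, 29 of 17355 (HIP) and 36 of 17049 (EC). Same-numbered wt and Ts65Dn libraries correlated at -0.198 to 0.166 in their deviations, so the number does not pair the genotypes. Without the mouse term, 6 members were higher and 27 lower in the HIP, where 11604 of all 18109 genes were called. The interaction again called 0 members. Depth limits the members under 2 CPM in most libraries, namely Pcdha1, Pcdha4, Pcdha8, Pcdha11, Pcdhb1, Pcdhga10 and Pcdhgb8.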
